A study of Mus musculus with 2 samples.

Results

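Accessible chromatin was measured by ATAC-seq, in which a transposase cuts and tags open DNA, in activated regulatory T cells, a CD4 lineage that depends on the factor Foxp3 and limits immune responses. The regions described here are those at genes with separate alternative promoters. Overlapping rows of the deposited peak list past the threshold of the irreproducible discovery rate (IDR) were merged into 26090 regions. A protein-coding gene of the GENCODE M21 annotation was kept when different regions lay within 500 bp of transcription start sites (TSSs) of that gene at least 2000 bp apart, and those regions were kept with it. Members were thus chosen by the presence of these peaks, while the order of their signal values is a description with no test. The rule found 744 genes of 21938 and 1621 regions, against 10664 regions within 500 bp of any protein-coding TSS. The cells came from male mice aged 4 months that carry the Foxp3CreERT2 and Rosa26YFP alleles, in which Foxp3 drives an inducible Cre recombinase and a fluorescent reporter sits at the Rosa26 locus. There was 1 group, with 2 libraries that the labels number as technical replicates of 1 biological replicate, and the labels do not say how the cells were activated. All peak lists pool both libraries, so no value has a replicate error, no test between groups was possible, and the results are descriptions of these cells.

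Many mammalian genes have more than 1 promoter. Transcripts from different promoters can carry different first exons, and so differ in their 5' ends, in their translation or in the N-terminus of the protein. Promoters in CpG islands are typically open in many cell types, whereas CpG-poor promoters are more often restricted to particular tissues. Classic cases in lymphocytes are Lck, the Src-family kinase of the T cell receptor, whose proximal promoter is used in thymocytes and whose distal promoter is used also in mature T cells, and Runx1, a Runt-domain factor with a distal and a proximal promoter. A region of open chromatin at an annotated TSS does not by itself show that transcripts start there, and RNA was not analysed here.

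Sequences round the summits of 4 genes are printed because they stand for the classes of promoter pairs described below. Runx1 has a CpG-poor upstream and a CpG-rich downstream region, Dock10 the opposite, Dnmt3a is CpG-rich at both, and Lck has few CpGs at both. Each line gives the summit base with 50 bases on each side, 5′ to 3′ on the strand of the gene, from GRCm38.p6, the assembly of mm10, and capitals mark CpG dinucleotides. The windows are Runx1 upstream chr16:92826142-92826242 and downstream chr16:92697376-92697476 (minus strand), Dock10 upstream chr1:80758530-80758630 and downstream chr1:80665313-80665413 (minus strand), Dnmt3a upstream chr12:3806369-3806469 and downstream chr12:3891194-3891294 (plus strand), and Lck upstream chr4:129573630-129573730 and downstream chr4:129558422-129558522 (minus strand).
Runx1 upstream: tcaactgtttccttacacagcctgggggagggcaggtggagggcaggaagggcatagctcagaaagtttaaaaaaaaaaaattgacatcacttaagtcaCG
Runx1 downstream: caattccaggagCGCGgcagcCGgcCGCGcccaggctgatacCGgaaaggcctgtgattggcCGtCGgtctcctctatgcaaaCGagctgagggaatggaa
Dock10 upstream: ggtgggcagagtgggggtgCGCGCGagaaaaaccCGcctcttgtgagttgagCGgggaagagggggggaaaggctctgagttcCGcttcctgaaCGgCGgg
Dock10 downstream: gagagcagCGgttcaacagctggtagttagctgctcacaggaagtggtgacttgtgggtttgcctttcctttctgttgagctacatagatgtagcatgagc
Dnmt3a upstream: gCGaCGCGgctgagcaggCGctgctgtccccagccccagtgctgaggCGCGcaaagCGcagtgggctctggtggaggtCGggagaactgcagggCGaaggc
Dnmt3a downstream: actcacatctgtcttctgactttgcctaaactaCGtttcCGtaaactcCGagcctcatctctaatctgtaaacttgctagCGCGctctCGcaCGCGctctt
Lck upstream: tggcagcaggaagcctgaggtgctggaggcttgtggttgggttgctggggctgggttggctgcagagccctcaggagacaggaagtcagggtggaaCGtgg
Lck downstream: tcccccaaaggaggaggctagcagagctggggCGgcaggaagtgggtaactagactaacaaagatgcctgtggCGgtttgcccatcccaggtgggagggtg
The Runx1 windows hold 1 CpG upstream and 9 downstream. The Dock10 windows hold 8 upstream and 1 downstream, the Dnmt3a windows 9 and 8, and the Lck windows 1 and 2. The upstream window of Lck holds the RUNX letters TGTGGTT, its downstream window the GC box letters GGGCGG, and the downstream window of Runx1 holds the NFY letters CCAATC on the other strand.

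Members made up 3.39% of all protein-coding genes, 6.40% of the 11617 genes whose TSSs lie 2000 bp or more apart, and 10.6% of the 7009 such genes with a region at any TSS. Of the 11617 genes, 4608 had no region and 6265 (53.9%) were open only at TSSs less than 2000 bp apart. In 5575 of those 6265 genes (89.0%) the open place lay within 2000 bp of the most upstream TSS, and genes near both ends are counted here. A further 313 of the 6265 (5.00%) were open near the most downstream TSS only, and 377 (6.02%) near neither. Of the 744 members, 609 had 2 regions, 118 had 3, 12 had 4, 4 had 5 and 1 had 7. When regions whose nearest TSSs were less than 2000 bp apart were counted as 1 place, 674 genes had 2 open places, 55 had 3, 2 had 4, 1 had 5 and 12 had only 1. In the 609 genes with 2 regions the median distance between the TSSs was 16460 bp (quartiles 7380 and 42680). The threshold of 2000 bp cut through a continuous range. Just inside it lay Smim15 (2012 bp, signal values 10.4 and 4.73), Rara (2014 bp, 5.23 and 3.88) and Ms4a6b (2082 bp, 8.02 and 5.47), and just outside it Rbm38 (1940 bp, 5.14 and 3.82), Arpc5 (1957 bp, 13.8 and 8.86) and Fbxl12 (1961 bp, 8.34 and 14.3).

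The labelled cell type was checked against fixed markers. A region lay within 500 bp of a TSS of 7 of 12 regulatory T cell markers, with none at Foxp3, Ikzf2, Tnfrsf18, Il10 and Klrg1, and of 6 of 7 T cell markers, with none at Cd4. The same held for 2 of 7 B cell markers, Pax5 and Ebf1, and 0 of 7 myeloid markers. It also held for 2 of 7 markers of NK and CD8 T cells, Cd8b1 and Prf1. Of all protein-coding genes 48.3% had such a region, so the regulatory T cell markers lay near the background by this measure. In the longer pseudoreplicated list these counts were 9, 7, 3, 1 and 3, and the share of all genes was 54.5%. The part of other cell types in the results below was not tested.

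The signal value used to rank regions is the value that the authors' peak caller wrote for each peak, with no statement of what it is relative to, and a region takes the highest value of its peaks. The upstream region had the higher signal in 329 of the 609 genes with 2 regions (54.0%, Wilson 95% interval 50.05 to 57.9) and the downstream region in 280 (46.0%). With TSSs of the GENCODE basic set only, the order turned, to 49.4% upstream in 243 genes, and with TSSs of coding transcripts the share was 50.7%. These and later intervals cover counting error over genes only. The median ratio of upstream to downstream signal was 1.05 (quartiles 0.737 and 1.46), and 351 genes (57.6%) lay within 1.5-fold. Upstream was ahead by at least 1.5-fold in 139 genes (22.8%) and downstream in 119 (19.5%). Past 2-fold the counts were 59 (9.69%) and 52 (8.54%). The signal values of the 2 regions of a gene were weakly related, with a Spearman correlation of 0.248 over 609 genes and a Pearson correlation of 0.245 for log2 values, which share 1 peak list and are not replicates.

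**Figure D1:**
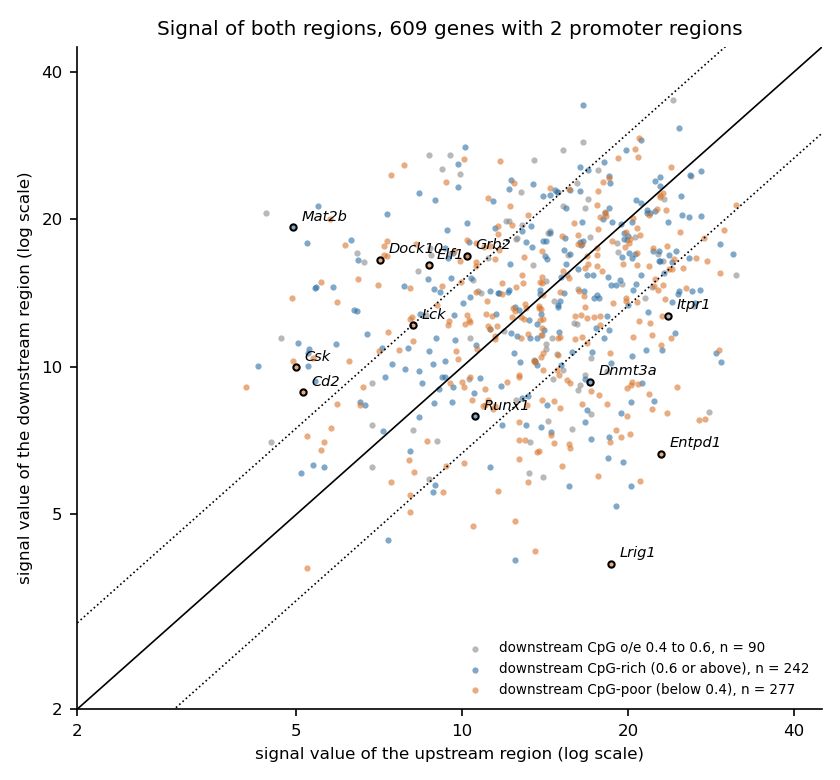
Each point is 1 of the 609 genes with 2 promoter regions, with the deposited signal value of the upstream region on the x axis and of the downstream region on the y axis, both on log scales. The solid line marks equal signal, the dotted lines 1.5-fold, colours the CpG class of the downstream region, and the points lie on both sides of the line, with 329 genes below it and 280 above.

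The order within a gene depended in part on the measure. The ranked list gives each peak a −log10 p in each of 2 inputs that were compared, whose origin the labels and headers do not state. The IDR threshold that chose these peaks compares the same 2 inputs, so agreement between them is not independent support. The same region was ahead in both inputs in 534 of 609 genes (87.7%), upstream in 331 and downstream in 203. Of the 258 genes past 1.5-fold in signal, 248 (96.1%) had the same region ahead in both inputs, and in 232 (89.9%) that region was also the one with the higher signal. By the peak caller's −log10 p the upstream region was ahead in 366 genes (60.1%), and the order matched that by signal in 508 (83.4%). The upstream region was also the wider in 371 genes (60.9%).

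The genes with the largest excess upstream, among those with exactly 2 regions and neither at another gene's TSS, were led by Lrig1, a negative regulator of ErbB receptors, with 18.6 upstream and 3.97 downstream (4.69-fold). Cyld, a deubiquitinase that restrains NF-kB signalling, had 13.6 and 4.20 (3.23-fold), and Dbp, a PAR bZIP factor of the circadian clock, 12.5 and 4.04 (3.09-fold). The others of the leading 10 were Mpzl1, Zdhhc18, Specc1l, Qsox1, Inpp5f, 2010111I01Rik and Ap1g1, from 3.46-fold to 2.77-fold. Lrig1, Dbp, Specc1l and Qsox1 had noncoding transcripts only at the downstream region, and Zdhhc18 and 2010111I01Rik at the upstream region. At the other end stood Mat2b, the regulatory subunit of methionine adenosyltransferase, with 4.92 upstream and 19.3 downstream (3.93-fold), and Coq8a, which acts in coenzyme Q synthesis, with 5.46 and 21.3 (3.89-fold). Rftn1, which encodes the lipid raft protein raftlin, had 7.85 and 25.8 (3.29-fold). Elmo1, a partner of Dock proteins in Rac activation, had 4.91 and 13.8 (2.82-fold). The rest were Nemp1, Tns2, Bicdl1, Fgfrl1, Ahnak and Cntrl, from 3.43-fold to 2.75-fold. Tns2 had noncoding transcripts only at both regions and Bicdl1 at its upstream region. At Fgfrl1 the TSSs nearest to the summits lay only 1848 bp apart. In all 20 genes the same region was ahead in both inputs and by −log10 p. These genes were picked for extreme signal in the same peaks, so this agreement is a description only. The most even pairs were Capg (14.02 and 14.01), Rapgef6 (16.9 and 16.8), Ptpn18 (15.5 and 15.4), Macf1 (17.6 and 17.5) and Pdlim2 (12.8 and 12.7).

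The list of genes known for alternative promoters held 12 members among its 40 genes with TSSs at least 2000 bp apart (30.0%), against 6.40% of all such genes. Among those that also had a region, 12 of 31 were members, against 10.6% of all such genes. The list was chosen with earlier results of these data known, and no difference was tested. Of the 12, 8 remained at a global IDR of 0.01 or below, without Nfatc1, Rara, Runx1 and Tcf4. Of all members, 71.2% remained at that threshold. Lck had 8.14 at its upstream region (chr4:129573517-129573853) and 12.2 at its downstream region (chr4:129558234-129558968), 15250 bp apart. The −log10 p gave the opposite order, 126.5 upstream and 102 downstream. The inputs were split, with 61.1 upstream and 39.5 downstream in input 1 and 67.6 and 67.9 in input 2, so these lists do not settle which Lck region was the more open.

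Runx1 had 10.5 at its upstream region (chr16:92825447-92826584) and 7.92 at its downstream region (chr16:92697243-92697576), 128821 bp apart, with upstream ahead in both inputs (77.8 and 65.9 against 16.3 and 30.1). The upstream Runx1 region, at the distal promoter, was CpG-poor, with an observed over expected ratio of 0.189, and the downstream region had 1.05. Dnmt3a, the de novo DNA methyltransferase, had 17.1 upstream (chr12:3806277-3807052) and 9.33 downstream (chr12:3890684-3891680), 85230 bp apart, and its transcripts from these places have different coding starts. Rara, the retinoic acid receptor alpha, had low values at both, 5.23 and 3.88. Gnas, the stimulatory G protein alpha subunit at an imprinted locus, had 10.3 and 12.5, with noncoding transcripts only at the downstream region and a −log10 p of 118 upstream and 42.5 downstream. Both Gnas regions lie far from its most upstream TSS, at 43250 and 60330 bp, and that TSS had no region.

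Several members of that list had 3 regions. Crem, a cAMP-responsive factor whose internal promoter makes the repressor ICER, had 13.3 upstream, 8.19 between and 15.2 downstream. The last 2 Crem regions share a TSS. Nr3c1, the glucocorticoid receptor, had 12.3, 10.7 and 5.98. Its last 2 regions lie at TSSs close together, 28120 and 28747 bp from the most upstream TSS. Nfatc1, the calcineurin-dependent factor, had 4.55, 6.17 and 3.86, which puts all 3 regions below the median of member regions, 12.8. Satb1, a chromatin organiser of T cells, had 9.39, 11.5 and 5.28, and Pde4d, a cAMP phosphodiesterase, 6.35, 10.2 and 12.5. All 3 Pde4d regions lie at TSSs 1453154 bp or more from its most upstream TSS, which had no region. Gata3 had 11.02, 5.66 and 5.54, and its most upstream region is also at the TSS of 9230102O04Rik. Tcf4, an E protein, had 2 regions 248883 bp apart with 13.7 and 12.2.

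Genes of that list that were not members were open at 1 place or none. Runx3 had a region of 24.6 at its most upstream TSS only. Runx2 had 5.96 at a TSS 78149 bp downstream, Prdm1, which encodes Blimp-1, 16.6 at 69753 bp, Rora 12.8 at 635896 bp and Pde4b 5.53 at 482552 bp. Genes of the list with no region included Tcf7, Ikzf1, Foxp3, Pparg, Trp63, Trp73, Hnf4a, Bdnf, Dmd and Cyp19a1.

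**Figure D2:**
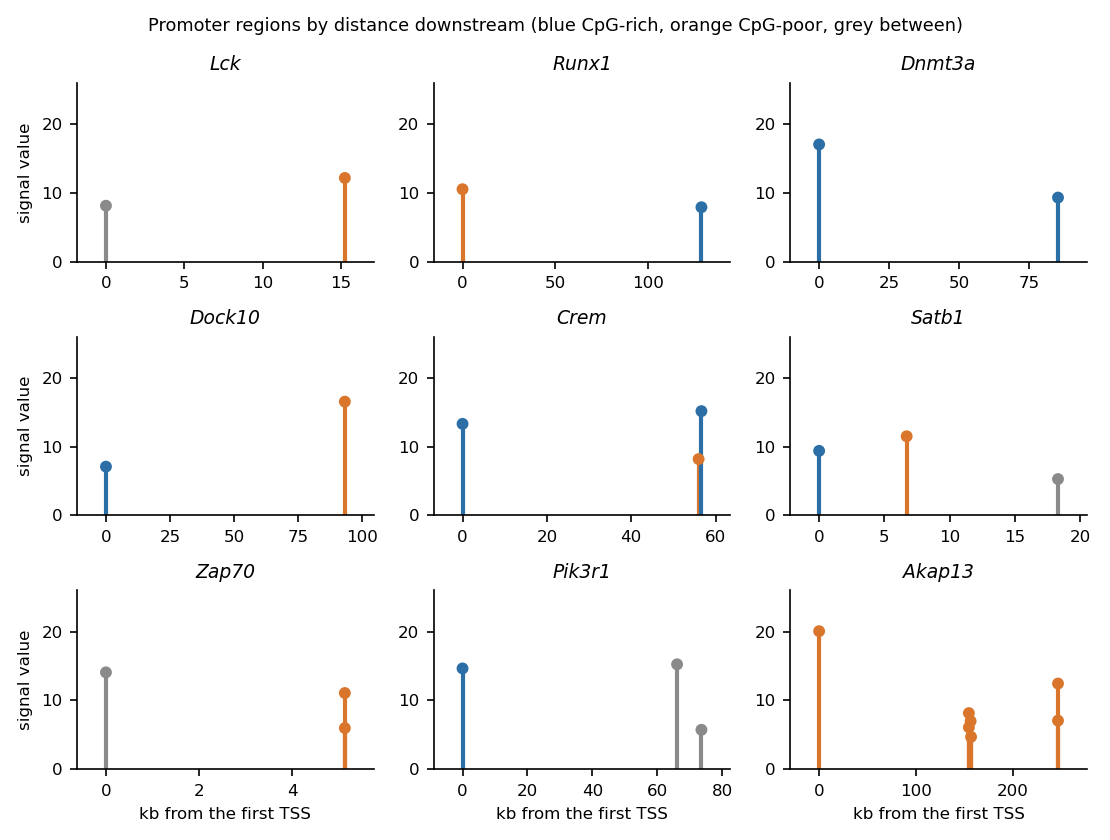
Each panel shows 1 member gene, with the distance in kb from its most upstream open TSS, in the direction of the gene, on the x axis and the signal value of each region on the y axis. Colours give the CpG class. Lck is higher downstream and Runx1 upstream, Satb1 is highest between its ends, and Akap13 has 7 regions at 3 stretches of the gene.

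Members were also common in the fixed lists of T cell genes. They were 12 of 42 T cell transcription factors with TSSs that far apart (28.6%), 13 of 48 signalling genes (27.1%) and 5 of 25 surface molecules, beside 4 of 24 chromatin regulators (16.7%), 2 of 11 housekeeping genes (18.2%) and 6.40% of all genes with TSSs 2000 bp or more apart. A region lay at 49 of all 58 T cell transcription factors, 55 of 58 signalling genes and 41 of 52 surface molecules, against 48.3% of all protein-coding genes. The lists overlap, and Gata3, Lck, Nfatc1, Pde4d, Runx1 and Satb1 are members on both the list of known alternative promoters and a T cell list. With each gene counted once, 36 of the 117 genes of these 4 lists with a region and TSSs that far apart were members (30.8%). The share was 10.6% of all such genes. Of these 36 genes, 21 were members at a global IDR of 0.01 or below. With TSSs of coding transcripts only 25 were members, and with TSSs of the basic set 18. Of all members, 71.2%, 60.8% and 37.2% remained under these settings, in the same order. The stricter IDR lost Csk, Ctla4, Dock8, Entpd1, Il6st, Itpr1, Nfatc1, Nr4a2, Rara, Runx1, Smad3, Stim1, Tcf4, Tnfrsf9 and Tox. The basic set lost Cd2, Ctla4, Dock8, Gata3, Gnas, Itpr1, Junb, Map4k1, Nfkb1, Nr3c1, Pik3r1, Plcg1, Smad3, Stat3, Stim1, Tox, Zap70 and Zeb1. Of the 23 with 2 regions, 9 had the higher signal upstream (39.1%) and the median ratio was 0.859 (quartiles 0.636 and 1.28), against 54.0% and 1.05 over all 609. By −log10 p upstream was ahead in 13 of the 23 and by summed signal in 14, so the direction turned with the measure. The list was chosen with earlier results known, and no difference from other genes was tested.

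Among transcription factors, the downstream region had the higher signal in 5 of the 6 genes with 2 regions, but in 4 by −log10 p and in 3 by summed signal, where Elf1 and Nr4a2 turned to upstream. Elf1, an ETS factor of lymphocytes, had 8.69 upstream and 16.1 downstream, and its upstream region also serves Wbp4. Nr4a1, an immediate early receptor induced by T cell receptor signals, had 6.37 and 13.1, with downstream ahead in both inputs. Nr4a2 had 7.18 and 7.38 and Junb 5.09 and 6.08, both within 1.5-fold. Nfkb1, which encodes p105 and p50, had 13.5 and 16.2, but its −log10 p was 194 upstream and 127 downstream. Runx1, given above, was the exception. Stat3, which carries signals of IL-6 family cytokines, had 12.9, 17.9 and 12.9, Tox 6.94, 9.49 and 15.6, and Zeb1 6.94, 7.81 and 13.2. The second regions of Tox and Zeb1 lie at TSSs only 758 and 1448 bp from the most upstream TSS, where their first regions lie. At Stat3, Tox and Zeb1 the region with the highest signal had noncoding transcripts only.

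Among signalling genes, Dock10, a guanine nucleotide exchange factor of the Dock family, had 7.09 at its CpG-rich upstream region (chr1:80758423-80758872) and 16.6 at its CpG-poor downstream region (chr1:80665019-80665758), 93218 bp apart. Downstream was ahead in both inputs (117 and 114 against 48.3 and 38.7), and the coding starts differ. Grb2, the adaptor that recruits Sos1 to receptors, had 10.2 and 16.9, with the inputs split. Csk, the kinase that restrains Src-family kinases, had 4.99 and 9.98. Dock8 had 12.5 and 14.6, with noncoding transcripts only downstream. Stim1, the calcium sensor of the endoplasmic reticulum, had 9.48 and 12.4, and its −log10 p was 139 upstream and 37.0 downstream. The opposite order was seen at Itpr1, an IP3 receptor of the same calcium pathway, with 23.7 and 12.7 at TSSs 204781 bp apart. Plcg1, the phospholipase that makes IP3, had 8.65 and 7.05, and Smad3, a TGF-beta effector, 6.87 and 6.24. Zap70, the kinase recruited by the T cell receptor, had 14.1, 11.1 and 5.97, where the last 2 regions share a TSS. Map4k1, also known as HPK1, had 14.1, 13.8 and 8.60, where the last 2 regions share a TSS. It was no longer a member when regions at TSSs of other genes were left out. Pik3r1, the p85 alpha subunit of PI3 kinase, had 14.7, 15.3 and 5.72.

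Among surface molecules, Entpd1, the ectonucleotidase CD39, had 23.0 upstream (chr19:40611775-40612594) and 6.65 downstream (chr19:40659562-40660440), a 3.46-fold difference. The upstream region of Entpd1 is also at the TSS of Tctn3, and what each gene contributes cannot be told apart. Il6st, the shared receptor subunit gp130, had 13.8 and 6.73. Cd2, an adhesion receptor, had 5.15 and 8.87, both CpG-poor. Ctla4, the inhibitory receptor of regulatory T cells, had 5.62 and 6.24, with noncoding transcripts only upstream. Tnfrsf9, which encodes 4-1BB, had 8.46, 5.16 and 6.02, and its most upstream region is shared with Park7.

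Upstream regions were mostly CpG-rich and downstream regions were divided between CpG-rich and CpG-poor sequence, a feature that the rule did not use. Within 100 bp of each summit the median CpG observed over expected ratio was 0.821 upstream and 0.455 downstream, and the GC content 64.7% and 56.7%. Below a ratio of 0.4, here called CpG-poor, lay 77 upstream regions (12.6%, 10.2 to 15.5) and 277 downstream regions (45.5%, 41.6 to 49.5). At 0.6 or above, here called CpG-rich, lay 470 (77.2%) and 242 (39.7%). The upstream value was the higher in 432 of 609 genes (70.9%), with a median difference of 0.252 (quartiles −0.036 and 0.606). Of the 9043 regions at TSSs of other genes, 8.47% were CpG-poor, with a median ratio of 0.831. This median was close to that of the upstream regions, but the CpG-poor share was lower than their 12.6%. Of 422 upstream regions at no TSS of another gene, 15.6% were CpG-poor, with a median ratio of 0.776. At the 187 upstream regions shared with another gene the values were 5.88% and 0.886.

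**Figure D3:**
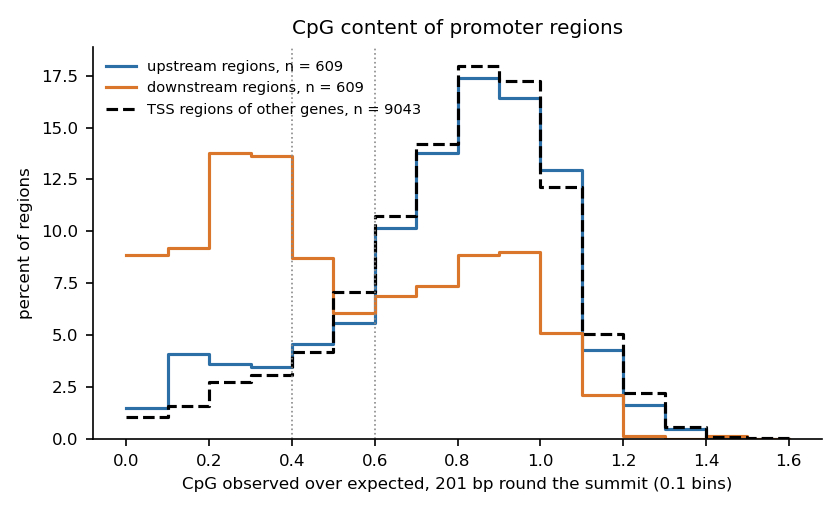
The x axis gives the CpG observed over expected ratio within 100 bp of the summit, in bins of 0.1, and the y axis the percent of regions, for 609 upstream regions, 609 downstream regions and 9043 TSS regions of other genes. Dotted lines mark 0.4 and 0.6. The upstream curve lies near that of other genes from 0.6 up. Below 0.4 lie 45.5% of downstream regions, 12.6% of upstream regions and 8.47% of those of other genes.

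The most common pair was a CpG-rich upstream with a CpG-poor downstream region, found in 216 genes and exemplified by Dock10 and Grb2. Both regions were CpG-rich in 183 genes, as in Dnmt3a, and both CpG-poor in 34, as in Cd2. The reverse pair, CpG-poor upstream and CpG-rich downstream, was found in 33, as in Runx1. The share of genes with the higher signal upstream was 57.9% (51.2 to 64.3) for the rich and poor pairs, 51.9% (44.7 to 59.0) for both rich, 39.4% (24.7 to 56.3) for the reverse pair and 70.6% (53.8 to 83.2) for both poor. In the 10 genes with a CpG-poor upstream region and a downstream ratio from 0.4 to 0.6, upstream was higher in 1 (Wilson 95% interval 1.79 to 40.4%). With a CpG-rich upstream region and such a downstream region, the share was 54.9% (71 genes). With an upstream ratio from 0.4 to 0.6 it was 46.2% for CpG-rich downstream regions (26 genes) and 51.9% for CpG-poor ones (27 genes). With both ratios in that range it was 66.7% (9 genes). Over the 249 genes with 1 CpG-rich and 1 CpG-poor region, the CpG-rich region had the higher signal in 145 (58.2%), the higher −log10 p in 171 (68.7%) and the greater width in 183 (73.5%). The difference in CpG ratio had a Spearman correlation of 0.047 with the log2 signal ratio over the 609 genes.

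Width and summit number followed the same split. The median width was 840 bp upstream and 698 bp downstream, and more than 1 summit was present in 76.9% and 63.2% of regions. Median signal was nearly equal, 14.04 (quartiles 10.3 and 18.7) upstream and 13.8 (9.89 and 17.8) downstream, whereas the median −log10 p was 121 and 87.0. Other genes' TSS regions had a median signal of 16.1 and a width of 863 bp. The CpG-poor downstream regions had a median signal of 12.7 and a width of 620 bp, close to all CpG-poor TSS regions (12.4 and 618 bp).

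What the annotation places at the 2 regions also differed. A coding transcript started within 500 bp of 91.6% of upstream and 67.3% of downstream regions, and 364 genes (59.8%) had one at both. Of the 199 downstream regions with noncoding transcripts only, 138 (69.3%) were CpG-poor, against 139 of 410 (33.9%) with a coding transcript and 58 of 252 (23.0%) with a transcript marked as a principal isoform. Upstream, 10.8% of regions with a coding transcript and 38 of 414 (9.18%) with a principal isoform were CpG-poor. Over all 609 genes the shares were 12.6% upstream and 45.5% downstream. The part of transcript type in this difference was not tested. The coding start was shared by the transcripts of both regions in 179 genes (29.4%), as in Lck and Csk, and differed in 153 (25.1%), as in Runx1, Dnmt3a and Dock10. The higher signal was upstream in 52.5% of the former and 45.1% of the latter.

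Where a principal isoform started only upstream (319 genes), the upstream region had the higher signal in 57.1%, with a median ratio of 1.07. Where it started only downstream (157 genes) the share was 45.2% and the ratio 0.948. The share by distance between TSSs was 49.5% under 5 kb, 54.3% from 5 to 20 kb, 56.1% from 20 to 100 kb and 51.3% at 100 kb or more.

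**Figure D4:**
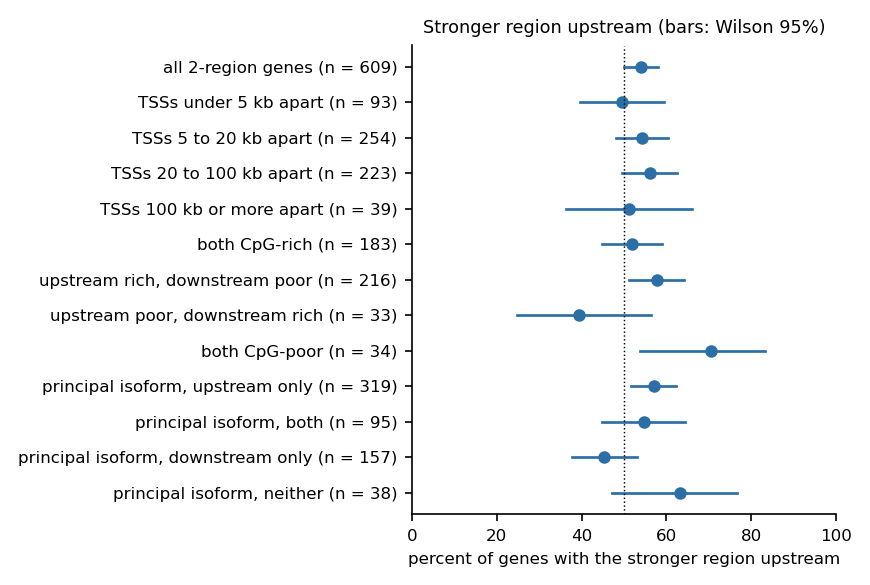
Points give the percent of genes with the higher signal upstream among genes with 2 regions, on the x axis, by TSS distance, CpG class pair and where the principal isoform starts, and bars are Wilson 95% intervals over genes. Most intervals span 50%, and the share is 57.1% with the principal isoform upstream only and 45.2% with it downstream only.

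A TSS of another protein-coding gene lay within 500 bp of 187 upstream regions (30.7%) but only 41 downstream regions (6.73%), against 12.4% of all TSS regions. In 197 of the 609 genes (32.4%) at least 1 region was shared in this way, as at Elf1 and Entpd1. Signal was higher at shared upstream regions, with a median of 16.3 against 13.5 at unshared ones.

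Short sequence motifs were counted within 100 bp of the summits, on both strands, by their letters alone. A match is a description and not a bound site. The SP and KLF GC box GGGCGG was present in 61.1% of upstream and 37.0% of downstream windows, beside 59.3% of all TSS windows. The NFY letters CCAATC were in 20.2%, 12.5% and 19.5%, the ETS letters CCGGAAG in 16.4%, 12.2% and 18.4%, and the NRF1 letters TGCGCA in 10.2%, 7.06% and 11.7%. More common downstream were AP-1, TGANTCA, in 2.30%, 6.57% and 3.51%, and RUNX, TGTGGTT, in 3.12%, 6.90% and 3.37%. The TATA box letters TATAAA were in 2.14%, 5.26% and 2.82%, and the TCF and LEF letters CTTTGA in 8.05%, 10.7% and 7.28%. The other 5 motifs were NFAT (TGGAAA), STAT (TTCNNNGAA), YY1 (AAGATGG), CREB (TGACGTCA) and the E-box CACGTG, with upstream shares from 1.64% (CREB) to 9.36% (E-box). The upstream and downstream intervals were apart for the GC box, NFY, AP-1, RUNX and the TATA box, and overlapped for the rest. The letters of the GC box, ETS, NRF1, CREB and E-box motifs contain CpG, and matches of different motifs may overlap.

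**Figure D5:**
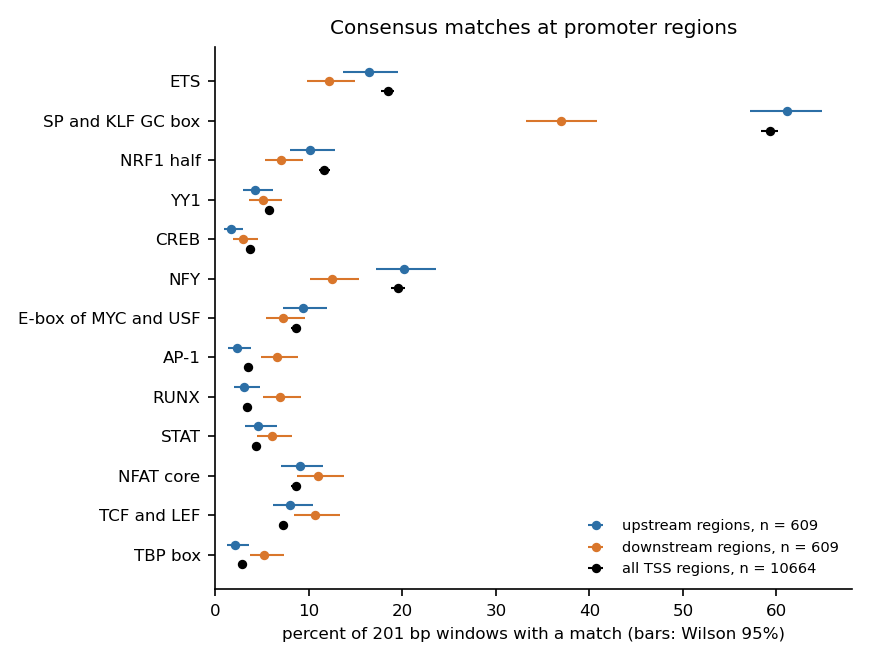
The x axis gives the percent of windows reaching 100 bp to each side of the summit with a match on either strand for each of 13 motifs, for 609 upstream windows, 609 downstream windows and 10664 windows of all TSS regions, with Wilson 95% intervals. The GC box is at 61.1% upstream and 37.0% downstream, and AP-1, RUNX and the TATA box (drawn as TBP box) lie higher downstream.

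The shares of the RUNX, AP-1 and GC box letters differed between CpG classes within both positions. RUNX letters were in 10.8% of CpG-poor and 1.24% of CpG-rich downstream windows, and in 9.09% and 1.92% of upstream windows, beside 11.6% of all CpG-poor TSS windows. AP-1 letters were in 9.39% and 2.48% downstream and in 6.49% and 1.92% upstream, beside 8.94% of all CpG-poor TSS windows. The GC box was in 12.3% and 68.2% downstream and in 14.3% and 69.1% upstream. The upstream CpG-poor shares rest on 7 RUNX, 5 AP-1 and 11 GC box windows of 77. The NFY letters were more common upstream in both classes, with 21.5% of CpG-rich upstream and 15.7% of CpG-rich downstream windows. In CpG-poor windows they were in 11 of 77 upstream and 25 of 277 downstream. The TATA box letters were in 2.13% of CpG-rich upstream and 2.07% of CpG-rich downstream windows. In CpG-poor windows they were in 3 of 77 and 20 of 277. The part of CpG content in the difference between upstream and downstream regions was not tested.

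The 135 genes with 3 or more regions had their highest signal at the most upstream region in 57 (42.2%), between the ends in 37 (27.4%) and at the most downstream region in 41 (30.4%). Their 159 regions between the ends had a median signal of 9.17 and a width of 567 bp, and 44.0% were CpG-poor. Both medians were lower than at the upstream and downstream regions of genes with 2. The ends of the same genes were not compared, and some of the 159 regions share a TSS with an end, as at Zap70. Akap13, an A-kinase anchoring protein, had the most, with 7 regions over 246463 bp. They had signals of 20.1, 6.07, 8.15, 6.98, 4.69, 12.5 and 7.05 in the direction of the gene, and all were CpG-poor. Atxn7l1, Mbnl1, Sema4d and Shisa5 had 5 each. Sema4d, a semaphorin of lymphocytes, had 10.4, 9.11, 8.83, 7.10 and 14.7, and only its most upstream region had coding transcripts. Mbnl1, a splicing regulator, had 4.65, 7.20, 6.66, 7.39 and 6.58, a narrow range. Coro1a, an actin regulator of T cells, had 4 regions with 5.65, 6.66, 8.08 and 4.78, and Btbd19, Dgkz, Mrtfa and Mthfd2 also had 4. The regions farthest apart belonged to Camta1 (753300 bp, 15.4 and 16.2), Fhit (708577 bp, 22.7 and 17.0), Rabgap1l (544940 bp, 4 regions), Inpp4b (425245 bp, 8.18 and 6.09) and Oxr1 (383450 bp, 3 regions).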

How the data were processed

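The analysis used 3 deposited peak lists on mm10, a pseudoreplicated list of 77257 peaks, an IDR ranked list and an IDR thresholded list of 48668 peaks, which derive from 1 alignment per the README with each library. The deposited signal value is as written by the authors' peak caller, with no stated reference, the deposited −log10 columns hold p-values and IDRs, and the deposited score of the ranked and thresholded lists follows from the global IDR and was not used. The aligner, caller, read filters and any transposase shift were all not given in the sources used here. Depth is unknown.

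Overlapping peaks (by at least 1 bp) were merged, and a region took the highest signal and that peak's summit. TSSs were those of all transcripts of protein-coding genes in GENCODE M21. Upstream and downstream follow the direction of the gene. Sequences were read from GRCm38.p6. The genes and lists were chosen with earlier results of these data known. Named were all members of the list of known alternative promoters and of the T cell lists. Among unshared genes with exactly 2 regions, the 10 highest and lowest signal ratios and the 5 nearest to 1 were named. So were the 10 genes with the most regions, the 5 farthest apart, and the 3 on each side of the 2000 bp threshold. Genes are not replicates, so shares carry Wilson 95% intervals for counting error and no p. The member rule was tested on simulated data. Alternatives covered the peak list, the IDR threshold, the TSS window, separation and set, shared regions and the measure of strength. The scripts used pysam 0.24.0, pandas 2.3.3, numpy 2.4.6 and scipy 1.17.1 under Python 3.11.15.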

Additional observations from a re-analysis of the deposited data

How the results depend on the processing

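Leaving out a library could not be run, because the deposited lists pool both libraries. No paired analysis was possible because there is 1 group. The number of genes was 1332 in the pseudoreplicated list, 452 with TSSs of protein-coding transcripts only and 277 with TSSs of the basic set, which hold 60.8% and 37.2% of the 744, and from 530 to 929 under the other alternatives. The share of genes with the higher signal upstream was 63.5% in the pseudoreplicated list, 60.1% by −log10 p and 59.3% by summed signal, and the median ratios there were 1.27, 1.31 and 1.13. With the basic set the order turned, to 49.4% and a ratio of 0.990. Under the other alternatives the share ran from 50.7% to 56.3%. The cause of these shifts was not tested. The median difference in CpG ratio was 0.334 without regions at TSSs of other genes and 0.186 with coding TSSs, and it stayed positive in all alternatives run. Of the 23 genes with 2 regions in the fixed lists, the order turned by −log10 p in 4, with ratios of 1.24 at Lck, 2.78 at Gnas, 1.53 at Nfkb1 and 3.75 at Stim1. By summed signal it turned in 5, with 1.62 at Ctla4, 1.34 at Nr4a2, 1.17 at Gnas, 1.61 at Stim1 and 1.22 at Elf1. The requirement that the TSSs nearest to the summits lie 2000 bp apart was added after seeing the data and left 732 genes and a share of 54.4%. Gene by gene ratios by −log10 p and summed signal were added likewise.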
